A study of Homo sapiens with 6 samples.

Results

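The genes described here encode the nuclear lamins, the SUN and nesprin proteins of the LINC complex (the linker of nucleoskeleton and cytoskeleton) and the inner nuclear membrane proteins emerin and LBR. They are SUN1, SUN2, SYNE1, SYNE2, SYNE3, LMNA, LMNB1, LMNB2, EMD and LBR, chosen by name. A peak was counted with one of these 10 genes when its centre lay in the gene's GENCODE body, or when it lay in no protein-coding gene and the nearest protein-coding start site was that of the gene. This gave 133 of the 152800 peaks of the table, 106 inside the genes and 27 outside, and 130 of them passed the filter on low counts. The 3 that did not were 1 intronic peak of SYNE2 and 2 intergenic peaks near EMD.

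Chromatin accessibility was measured by ATAC-seq, in which the Tn5 transposase inserts sequencing adaptors into open DNA, in A375, an established human melanoma cell line. The groups were EV, 3 libraries from cells with an empty vector, and HMGB2OE, 3 libraries from cells overexpressing HMGB2, a DNA-bending high mobility group protein. Both were stable lines made by lentiviral transduction and drug selection, and no other agent or confinement was applied to them as far as the labels state. The libraries are technical replicates of a single experiment according to the study's reporting summary, so p-values below measure the spread between these libraries only.

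Between 26910189 and 45645294 counts per library lay in peaks. All but 15 peaks were 502 bp wide, so that levels of different peaks are counts over equal lengths. These levels were not corrected for GC content, mappability or copy number, which limits comparisons between loci. A normalized count here is a peak's count divided by the effective library size and multiplied by the mean effective library size. Libraries of a group differed from each other by more than counting noise (chi-square over degrees of freedom of at least 2.5), and none was merged with another. In HMGB2OE the HMGB2 peak from 173332680 to 173333181 on chromosome 4 rose from 32.0 ± 15.7 (SD, n = 3) to 98.4 ± 5.31 (SD, n = 3; adjusted p = 0.00011, edgeR), with 288 of its bases in coding sequence, while the peak at the HMGB2 start was at 1986 ± 223 and 1973 ± 59.0 (SD, n = 3 each). The vector carries a coding sequence of HMGB2, and its reads cannot be told apart from those of the exons of the gene. Among melanocyte lineage genes 5 of 8 had a promoter peak (MITF, SOX10, PMEL, S100B and TYRP1), while MLANA, TYR and DCT had none. Among markers of other cell types 4 of 6 had one (PTPRC, EPCAM, KRT18 and PECAM1). Ranked among the promoter peaks of all genes, the lineage genes lay between percentiles 13.3 and 81.4 and the other markers between 9.83 and 55.7. The markers thus went both ways. The promoter peak of the leukocyte gene PTPRC was at 161 in EV and 69.8 in HMGB2OE, and its part in the results was not tested.

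In the nuclear envelope, SUN proteins span the inner membrane, bind lamins on the nuclear side and, in the space between the membranes, hold the KASH domain of the nesprins. Nesprins cross the outer membrane and bind actin, microtubule motors or plectin, so that force on the cytoskeleton reaches the nucleus. The lamins form the meshwork under the inner membrane that gives the nucleus its stiffness, and emerin and LBR anchor that meshwork and chromatin to the membrane. Lamin A/C in particular is known for setting how far a nucleus deforms when a cell squeezes through a narrow space.

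Of the 130 tested peaks, 4 passed an adjusted p-value under 0.05 with at least a 1.5-fold difference, and all 4 belonged to the giant nesprin genes SYNE1 and SYNE2. A set of 3 was higher in HMGB2OE (2.31% of the tested peaks of these genes, beside 1.87% of all 150117 tested peaks) and 1 was lower (0.769% beside 1.44%). The shares were near those of all peaks. The other 8 genes had no such peak, while SYNE1 and SYNE2 held 27 and 19 of the 130 tested peaks. The central 300 bases of 3 of the 4 peaks are shown because they carry the differences, in hg38 on the plus strand, with capitals on the words TGACTCA (bound by AP-1), CATGTG and CACGTG (bound by MITF and its relatives), ACAAAG (bound by SOX factors) and GGAATG (bound by TEAD factors), each searched on both strands. The sequences run over chr6:152405028-152405327, chr6:152643045-152643344 and chr14:64049572-64049871.
SYNE1 intronic peak, lower in HMGB2OE: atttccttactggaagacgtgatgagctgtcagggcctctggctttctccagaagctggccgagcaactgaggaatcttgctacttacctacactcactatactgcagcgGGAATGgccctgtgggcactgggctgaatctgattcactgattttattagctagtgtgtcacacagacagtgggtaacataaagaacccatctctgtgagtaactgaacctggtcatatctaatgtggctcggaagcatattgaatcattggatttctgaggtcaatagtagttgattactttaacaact
SYNE1 upstream peak, higher in HMGB2OE: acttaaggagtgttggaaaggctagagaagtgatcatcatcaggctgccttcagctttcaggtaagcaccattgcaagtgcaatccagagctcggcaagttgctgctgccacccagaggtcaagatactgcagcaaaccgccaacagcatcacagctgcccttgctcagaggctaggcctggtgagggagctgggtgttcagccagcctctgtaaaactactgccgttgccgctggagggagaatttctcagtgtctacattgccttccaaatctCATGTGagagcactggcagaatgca
SYNE2 coding exon peak, higher in HMGB2OE: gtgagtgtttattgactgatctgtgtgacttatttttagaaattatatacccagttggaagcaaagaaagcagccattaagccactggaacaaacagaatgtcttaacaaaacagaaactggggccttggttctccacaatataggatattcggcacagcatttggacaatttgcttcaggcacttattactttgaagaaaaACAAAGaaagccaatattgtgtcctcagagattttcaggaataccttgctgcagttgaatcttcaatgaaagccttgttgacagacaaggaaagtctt
The AP-1 word stood in the same window of 24.9% of all tested peaks and in none of these 3. The intronic SYNE1 peak held GGAATG, found in 20.1% of all tested peaks, the coding exon peak of SYNE2 held ACAAAG, found in 26.6%, and the upstream SYNE1 peak held CATGTG, found in 17.9%. CACGTG, found in 4.44%, was in none of them. Such matches describe the letters of a window and are not binding sites.

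**Figure D1:**
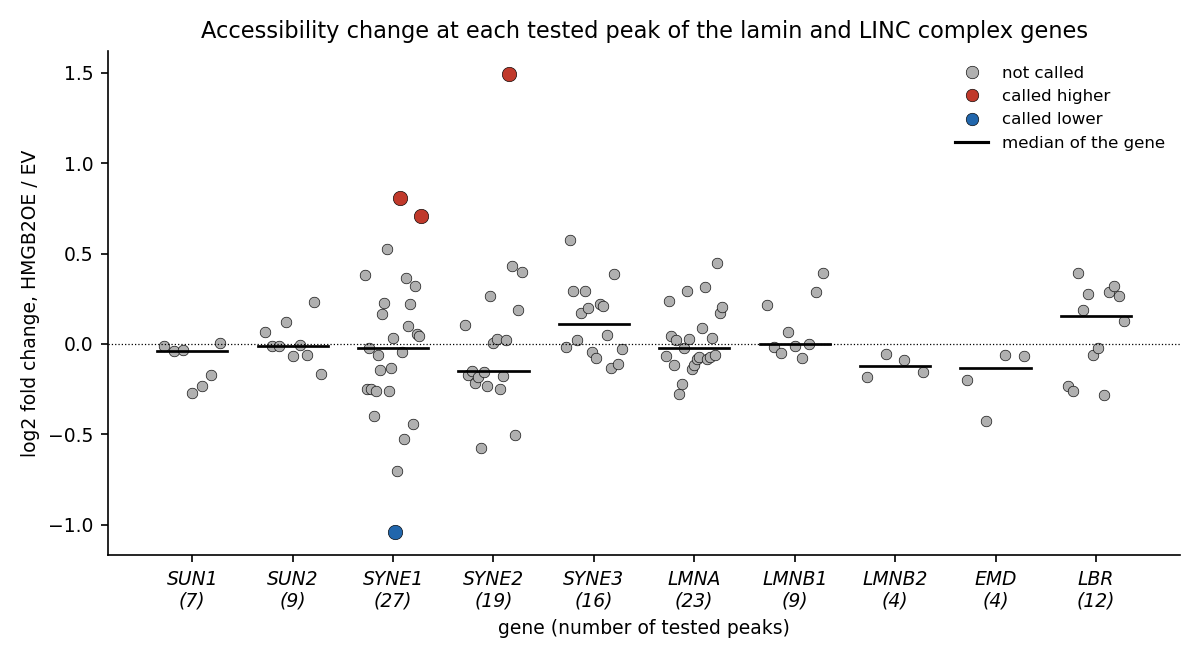
Log2 fold change of every tested peak (HMGB2OE over EV, vertical axis) by gene, with peaks in genome order within a gene, called peaks in colour and the median of each gene as a line. The called peaks are confined to SYNE1 and SYNE2, which have 27 and 19 tested peaks. The medians of the 10 genes lie between -0.15 and 0.16.

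SYNE1 encodes nesprin-1, a giant spectrin-repeat protein whose longest form links the outer nuclear membrane to actin. The gene lies on the minus strand of chromosome 6 from 152121687 to 152637801 and had 27 peaks, the most of the 10 genes. Its intronic peak at chr6:152404927-152405428, 233 kb into the gene, had normalized counts of 139, 135 and 149 in EV and 59.5, 77.6 and 67.5 in HMGB2OE. Every HMGB2OE library was far below every EV library. The level fell from 141 ± 6.97 to 68.2 ± 9.05 (SD, n = 3 each). The log2 fold change was -1.04 (standard error, SE, 0.168, adjusted p = 0.00028, edgeR's quasi-likelihood test), or 2.06-fold lower.

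A second SYNE1 peak, 210 kb into the gene, overlapped a coding exon with 188 of its bases. It had 66.7, 102 and 116 normalized counts in EV and 156, 166 and 184 in HMGB2OE. The groups did not overlap, although EV replicate 1 was well below the other EV libraries. The log2 fold change came to 0.81 (SE 0.166, adjusted p = 0.0029, edgeR), and 0.64 without that library (adjusted p = 0.020). Thus peaks in the same gene moved in opposite directions, and between them a weak intronic peak at 26.9 normalized counts had a log2 fold change of -0.70 (adjusted p = 0.27).

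The third called SYNE1 peak lay outside the gene, 5.39 kb upstream of its start, at chr6:152642944-152643445. EV libraries had 65.3, 67.1 and 57.3 normalized counts and HMGB2OE libraries 103, 89.2 and 120.5. All HMGB2OE values were above the EV values, and the log2 fold change was 0.71 (SE 0.188, adjusted p = 0.021, edgeR). The call was lost without EV replicate 3 (adjusted p = 0.066), without HMGB2OE replicate 1 (0.070) and without HMGB2OE replicate 3 (0.11).

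No start of SYNE1, full-length or internal, passed the test. The peak at the full-length start, from 152636754, had a mean of 210.1 normalized counts and a log2 fold change of 0.04 (SE 0.132). The most accessible SYNE1 peak, from 152381183, lay 213 bp from the start of a retained-intron transcript in the middle of the gene and had 1106, 1260 and 1165 normalized counts in EV and 1099.9, 1137 and 986 in HMGB2OE. These groups overlapped, with a log2 fold change of -0.13 (95% interval -0.30 to 0.04, adjusted p = 0.38). A further internal start, from 152301804, was at a mean of 893 normalized counts with a log2 fold change of -0.06. The most accessible SYNE1 peak away from a start, an intronic one from 152401921, lay 3.01 kb from the peak that fell. It had 427, 508 and 566 normalized counts in EV and 575, 485 and 481 in HMGB2OE, a log2 fold change of 0.03. Of the 27 tested SYNE1 peaks, 13 had a log2 fold change above 0 and 14 below, with a median of -0.02, and the summed count of the gene was 5602 ± 227 in EV and 5415 ± 186 in HMGB2OE (SD, n = 3 each; log2 fold change -0.05, adjusted p = 0.48).

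SYNE2 encodes nesprin-2, the other giant nesprin, which also reaches actin and takes part in moving nuclei. The gene lies on the plus strand of chromosome 14 from 63761899 to 64226433. Its coding exon peak at chr14:64049471-64049972, 288 kb into the gene and with 266 of its bases in coding sequence, had 18.1, 21.5 and 19.9 normalized counts in EV and 57.8, 52.5 and 59.7 in HMGB2OE. The libraries were close together within each group and far apart between groups, with a log2 fold change of 1.49 (95% interval 0.90 to 2.09, adjusted p = 0.0017, edgeR), or 2.82-fold higher. It was the largest difference among the 130 tested peaks, at a low level. It kept its call without each library in turn, with adjusted p-values up to 0.014.

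The next peak along SYNE2, an intronic one from 64060595, also had no overlap between groups, at 55.6, 49.9 and 63.2 normalized counts in EV and 68.9, 74.2 and 84.4 in HMGB2OE, but did not pass the test (log2 fold change 0.43, adjusted p = 0.23). The peak after it, at chr14:64074911-64075412, lay 454 bp from the start of a retained-intron transcript and had 140.4, 154 and 119 normalized counts in EV and 91.0, 103 and 99.1 in HMGB2OE. It was lower in every HMGB2OE library (log2 fold change -0.51, adjusted p = 0.0499, edgeR), short of 1.5-fold, and its adjusted p was 0.12 with DESeq2 and 0.13 with GC-content offsets. Without any library but EV replicate 3 it was between 0.089 and 0.24, and without EV replicate 3 the peak was called (log2 fold change -0.60, adjusted p = 0.034). Both peaks were singled out after their values were seen. The SYNE2 promoter peak, from 63852754 at a protein-coding start, had 568, 565 and 513 normalized counts in EV and 472, 517 and 463 in HMGB2OE. These groups overlapped by 1 library (log2 fold change -0.18, 95% interval -0.38 to 0.02, adjusted p = 0.29). Over the gene, 9 of 19 tested peaks had a log2 fold change above 0, and the summed count was 3069.9 ± 16.1 in EV and 2998 ± 84.1 in HMGB2OE (SD, n = 3 each; adjusted p = 0.65).

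**Figure D2:**
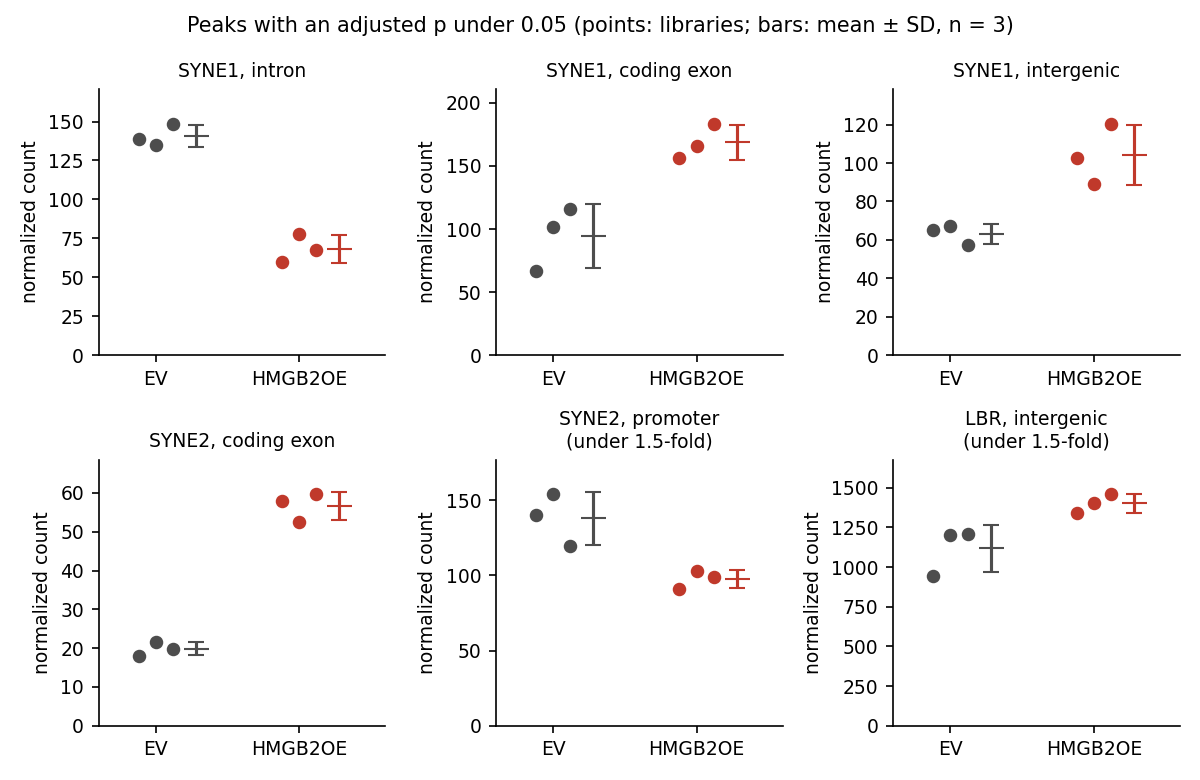
Normalized counts (vertical axes, from 0) of the 6 peaks of these genes with an adjusted p under 0.05, each point a library and each bar a group mean with its SD (n = 3), EV in grey and HMGB2OE in red. In the SYNE2 coding exon the EV libraries lie between 18.1 and 21.5 and the HMGB2OE libraries between 52.5 and 59.7.

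Both nesprin peaks that rose inside a gene were centred in coding exons, a class singled out after the values were seen. In all, 3 tested peaks of these genes were centred in a coding exon away from a start, and in all 3 the HMGB2OE libraries lay above the EV libraries. Besides the pair that was called, the coding exon peak of SYNE1 from 152364765 had 38.9, 42.2 and 41.0 normalized counts in EV and 50.2, 67.6 and 58.5 in HMGB2OE (log2 fold change 0.53, SE 0.243, adjusted p = 0.21). Of the 1322 coding exon peaks tested across all genes, 13.2% had no overlap in this direction and 1.36% were called higher. Peaks of the 10 genes that held coding bases but lay near a start, or were centred outside the coding sequence, went both ways. In SYNE1 the peak from 152461492, with 144 coding bases, had a log2 fold change of -0.53. That from 152462755, with 136 coding bases, had 0.37. Of the 69 tested intronic peaks of the 10 genes, 1 was called, the SYNE1 peak that fell, and their median log2 fold change was 0.0024.

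SYNE3 encodes nesprin-3, a smaller nesprin that binds plectin and through it intermediate filaments. None of its 16 peaks was called. The gene had the largest share of nesprin peaks with a positive log2 fold change, 10 of 16, with a median of 0.11. The peak closest to a call lay in an untranslated or non-coding exon from 95413657, with 50.0, 57.6 and 60.8 normalized counts in EV and 83.3, 75.9 and 94.6 in HMGB2OE. Its groups did not overlap, and the log2 fold change of 0.58 had an adjusted p of 0.084 (edgeR). The promoter peak of SYNE3, from 95516354, was the least accessible of the 10 promoters, at 297, 305 and 284 normalized counts in EV and 269, 282 and 270 in HMGB2OE (log2 fold change -0.11, adjusted p = 0.61). Its most accessible peak, intronic from 95507115, was at a mean of 689 with a log2 fold change of -0.13.

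**Figure D3:**
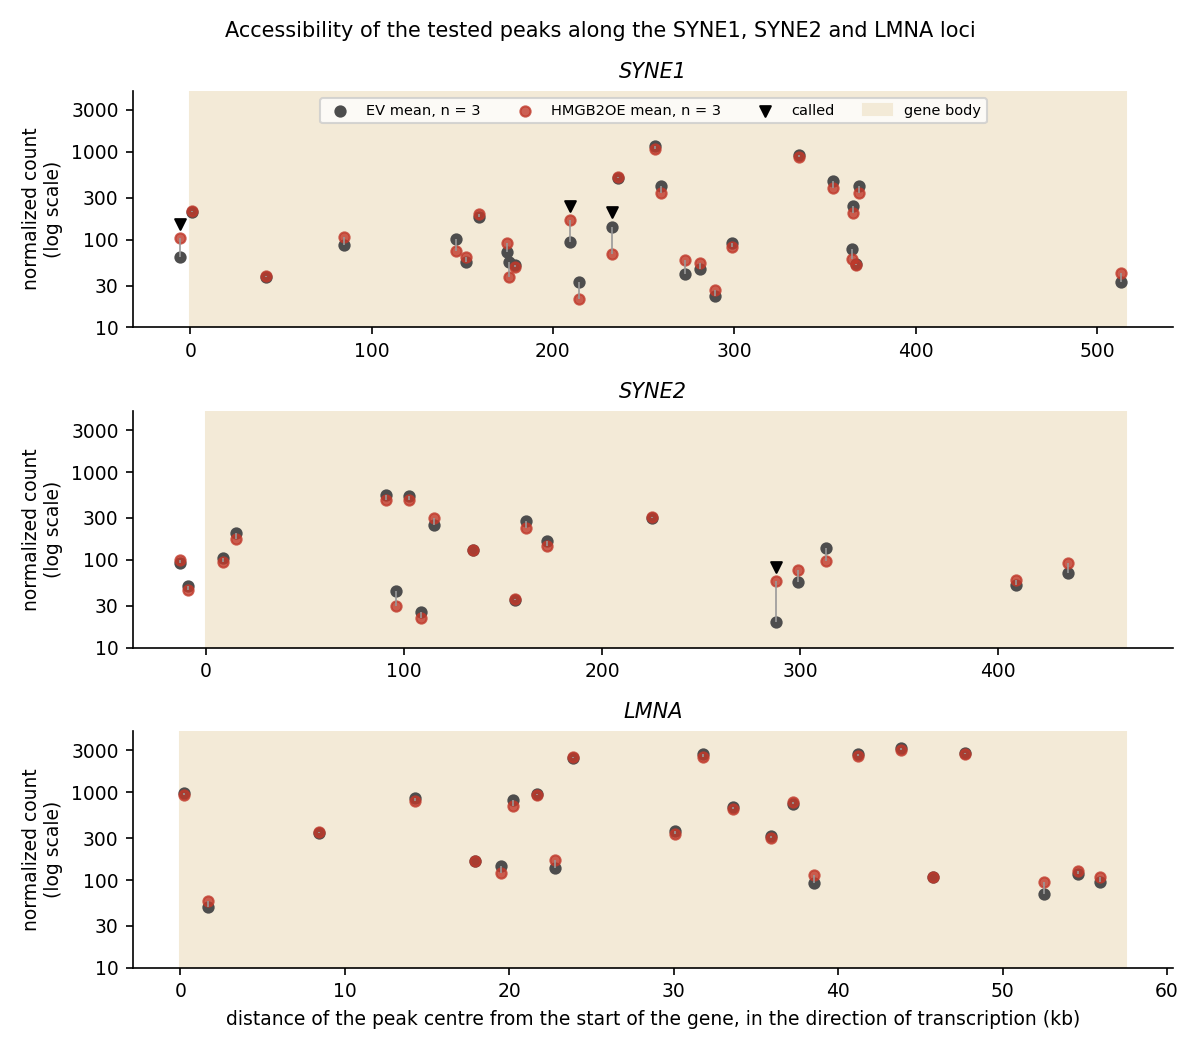
Mean normalized count (vertical axes, log scale) of each tested peak in EV and HMGB2OE (n = 3 each) against the distance of its centre from the gene's start, with the gene body shaded and called peaks marked by a triangle, for SYNE1, SYNE2 and LMNA. The EV and HMGB2OE points lie close together over most of each locus, also at the LMNA peaks above 2000 counts. They separate at the called peaks and at some peaks that were not called.

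Among the SUN genes, none of 16 tested peaks passed an adjusted p under 0.05. SUN1 and SUN2 encode the inner membrane proteins that hold the nesprins. The SUN1 promoter peak, from 816263 on chromosome 7, had 777, 773 and 895 normalized counts in EV and 783, 822 and 773 in HMGB2OE, a log2 fold change of -0.04 (95% interval -0.22 to 0.14). A second SUN1 start, from 831497, was lower in every HMGB2OE library, at 598, 633 and 539 in EV and 502, 514 and 495 in HMGB2OE, without passing the test (log2 fold change -0.23, adjusted p = 0.15). The SUN2 promoter peak, from 38755416 on chromosome 22, had 457, 501 and 569.9 normalized counts in EV and 480.3, 625 and 562 in HMGB2OE, a log2 fold change of 0.12 (95% interval -0.09 to 0.34). Taking for each of the 10 genes its promoter peak of highest mean count, SUN2 alone had a positive log2 fold change. However, the sign at SUN1 turned with the loess trend removed. That at LMNB1 turned with library size only, with the loess trend removed and with GC-content offsets. The summed counts of SUN1 (log2 fold change -0.04, adjusted p = 0.63) and SUN2 (0.07, adjusted p = 0.40) overlapped between the groups.

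Among the lamin genes, none of 36 tested peaks passed an adjusted p under 0.05. LMNA held the most accessible chromatin of the list, while the promoter peak of LMNB2 was among the weaker ones. LMNA, which encodes lamin A and lamin C, lies on chromosome 1 from 156082573 to 156140081 and had 23 peaks in its 57.5 kb. Its summed count was 19708, 20493 and 22015 in EV and 20447, 20156 and 20657 in HMGB2OE, higher than that of 99.8% of the 18297 genes tested. The groups overlapped, and the log2 fold change was -0.02 (95% interval -0.12 to 0.07, adjusted p = 0.80, edgeR). Of all tested peaks, 0.771% had a mean of at least 2000 normalized counts, and of those of the 10 genes 7 did, 5 of them in LMNA and 1 each at the LMNB1 and EMD starts. The 5 in LMNA lay between 23.8 and 47.7 kb from the start of the gene, and their log2 fold changes ran from -0.12 to 0.03 with adjusted p-values of at least 0.35. The most accessible, from 156126121 and 174 bp from the start of a shorter protein-coding transcript, had 2894, 3218 and 3542 normalized counts in EV and 3053, 2950 and 3174 in HMGB2OE. The start of the gene itself, from 156082543, was at a mean of 963 normalized counts with a log2 fold change of -0.07.

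Of these 5 LMNA peaks, 4 held the AP-1 word TGACTCA on either strand within their 502 bp, at 5 positions, beside 28.0% of all tested peaks and 21.9% of all peaks with at least 2000 normalized counts. The 47 bases around each position are shown, in hg38 on the plus strand with the word in capitals, because these are the strongest peaks of the list. They are chr1:156114214-156114260, chr1:156114266-156114312, chr1:156123834-156123880, chr1:156126461-156126507 and chr1:156130367-156130413.
LMNA peak 156114106, word at the left: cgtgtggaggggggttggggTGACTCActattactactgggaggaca
LMNA peak 156114106, word at the right: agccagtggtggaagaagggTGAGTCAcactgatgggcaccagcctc
LMNA peak 156123527: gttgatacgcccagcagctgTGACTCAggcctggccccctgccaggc
LMNA peak 156126121: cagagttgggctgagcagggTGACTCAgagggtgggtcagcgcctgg
LMNA peak 156130033: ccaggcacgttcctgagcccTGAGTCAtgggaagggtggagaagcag
The peak that holds a pair of these words, from 156114106, had 2613, 2754 and 2796 normalized counts in EV and 2574, 2456 and 2503 in HMGB2OE. It was lower in every HMGB2OE library, by a log2 fold change of -0.12 (SE 0.069) that did not pass the test (adjusted p = 0.35). The intronic peak from 156130033 had 2499, 2837 and 3103 normalized counts in EV and 2702, 2575 and 2816 in HMGB2OE, and here the groups overlapped. Among all 130 tested peaks of the 10 genes, 30.0% held the AP-1 word, near the share of all peaks.

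LMNB1 and LMNB2 encode the B-type lamins, which stay bound to the inner membrane through a lipid anchor. The LMNB1 promoter peak, from 126776669 on chromosome 5, had 2143, 2413 and 2381 normalized counts in EV and 2299, 2219 and 2347 in HMGB2OE. Its log2 fold change of -0.02 had a 95% interval of -0.16 to 0.13. This was the smallest difference among the 10 promoter peaks of highest mean count per gene. The other LMNB1 peaks were much weaker, and the largest log2 fold change among them was 0.39 at an intergenic peak from 126846766 (adjusted p = 0.33). LMNB2 had 4 peaks on chromosome 19, all with a log2 fold change below 0. Its promoter peak from 2456790 had 461, 422 and 388 normalized counts in EV and 408, 436 and 376 in HMGB2OE (log2 fold change -0.06, adjusted p = 0.82). A stronger peak at the end of the gene, in an exon outside the coding sequence from 2427483, had 813, 839 and 836 in EV and 711, 757 and 719 in HMGB2OE, with no overlap (log2 fold change -0.19, adjusted p = 0.20). The summed count of LMNB2 also did not overlap between groups, at 1690.0 ± 112 in EV and 1572 ± 34.7 in HMGB2OE (SD, n = 3 each; log2 fold change -0.10, adjusted p = 0.25).

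EMD encodes emerin, a LEM-domain protein of the inner membrane that binds lamin A. The gene is short, from 154379273 to 154381574 on the X chromosome, and its promoter peak, from 154378699, had 2353, 2567 and 2819 normalized counts in EV and 2389, 2054 and 2303 in HMGB2OE. The groups overlapped by EV replicate 1, the lowest EV library, and HMGB2OE replicate 1, the highest of its group. The log2 fold change was -0.20 (95% interval -0.36 to -0.04, adjusted p = 0.13), and without EV replicate 1 it was -0.26 and passed the test (adjusted p = 0.025, edgeR), short of 1.5-fold. The weaker peak in the gene, from 154379821, was lower in every HMGB2OE library, at 104, 84.3 and 86.6 in EV and 74.0, 59.2 and 70.9 in HMGB2OE (log2 fold change -0.42, adjusted p = 0.20). Summed over the locus the count was 2749.6 ± 204 in EV and 2445 ± 189 in HMGB2OE (SD, n = 3 each), with no overlap and a log2 fold change of -0.17 (SE 0.059, adjusted p = 0.075, edgeR). This was the smallest adjusted p-value among the 10 summed counts. It passed the threshold under some of the alternatives tried, with adjusted p-values between 0.019 and 0.048.

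LBR encodes the lamin B receptor, which binds B-type lamins and heterochromatin and is also a sterol reductase. Its 12 peaks were 2 inside the gene and 10 in the intergenic region upstream of it on chromosome 1, where LBR has the nearest protein-coding start. The promoter peak and the strongest upstream peak had log2 fold changes of opposite sign. The promoter peak, from 225427786, had 1145, 1097 and 990.0 normalized counts in EV and 864, 1004 and 826 in HMGB2OE, overlapping by 1 library. Its log2 fold change of -0.26 (95% interval -0.44 to -0.08) had an adjusted p of 0.073 (edgeR), which came to 0.047 without EV replicate 3 and 0.044 without HMGB2OE replicate 2, short of 1.5-fold in both. The strongest upstream peak, at chr1:225465331-225465832 and 36.7 kb before the start, had 946, 1199 and 1206 in EV and 1341, 1406 and 1459 in HMGB2OE. Every HMGB2OE library was above every EV library, and the log2 fold change of 0.32 (SE 0.087, adjusted p = 0.022, edgeR) passed the test without reaching 1.5-fold. Its adjusted p was 0.065 without EV replicate 1, 0.055 without HMGB2OE replicate 1, 0.074 without HMGB2OE replicate 2 and 0.074 without HMGB2OE replicate 3, and 0.12 with GC-content offsets. The neighbouring strong peak from 225454691, at a mean of 1132 normalized counts, had a log2 fold change of -0.02. The summed count of LBR was 4740.4 ± 120.1 in EV and 5087 ± 118 in HMGB2OE (SD, n = 3 each; log2 fold change 0.10, adjusted p = 0.10). With the peaks inside the gene only it turned to -0.22 (adjusted p = 0.048), so that the direction for LBR depends on whether the upstream peaks are counted with it.

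Without the fold limit, 4 peaks of the 10 genes passed the adjusted p in the higher direction and 2 in the lower, beside 3.44% and 3.03% of all tested peaks. Groups that did not overlap were seen at 16 peaks in the higher direction and 16 in the lower (12.3% each), beside 12.6% and 12.5% of all tested peaks. The median log2 fold change was -0.02 for the 130 peaks and -0.0049 for all peaks, and 46.2% of the 130 lay within 0.15 of 0, beside 43.6% of all.

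The order of the promoters by level, taking for each gene its promoter peak of highest mean count, was SYNE3, LMNB2, SYNE2, SUN2, SUN1, LBR, SYNE1, LMNB1, EMD and LMNA, from 285 to 3138 normalized counts. Some of these peaks lay at internal starts: SYNE1 256 kb, LMNA 43.8 kb, SUN2 38.5 kb and SYNE2 91.1 kb into the gene. The SYNE1 one was the start of a retained-intron transcript. The full-length start of SYNE1 was at a mean of 210.1 and the start of LMNA at 963, so the order depends on the peak taken. Over the 6 libraries the values of SYNE2 and SUN2, of SUN1 and LBR, of LBR and SYNE1, and of LMNB1 and EMD overlapped, and the other neighbours in the order did not. Of the 10 promoter peaks 9 had a log2 fold change below 0 (with the exceptions by scaling given above for SUN1 and LMNB1), none passed the test with all libraries, and the median was -0.09. The same measure over 14673 genes had a median of -0.07, with 71.3% below 0. The RefSeq promoters (GRCh38.p14) of EMD, next to last in that order, and SYNE3, the first, are shown. This pair was picked because it held like numbers of CG pairs at unlike levels. The 250 bases before the start are given on the strand of the gene, with CG pairs in capitals, from chrX:154379045-154379294 and chr14:95516651-95516900.
EMD promoter: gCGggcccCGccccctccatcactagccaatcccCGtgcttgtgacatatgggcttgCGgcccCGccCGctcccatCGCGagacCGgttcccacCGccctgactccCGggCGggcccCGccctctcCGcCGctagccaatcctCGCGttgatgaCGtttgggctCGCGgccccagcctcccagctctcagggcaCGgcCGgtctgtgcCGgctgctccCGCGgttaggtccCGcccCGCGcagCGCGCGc
SYNE3 promoter: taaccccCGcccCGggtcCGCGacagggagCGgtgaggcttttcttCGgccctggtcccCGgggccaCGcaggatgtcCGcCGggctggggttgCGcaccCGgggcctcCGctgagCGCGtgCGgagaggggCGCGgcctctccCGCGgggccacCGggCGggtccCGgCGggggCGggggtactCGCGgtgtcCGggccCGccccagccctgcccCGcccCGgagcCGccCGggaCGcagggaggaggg
EMD has 31 CG pairs and SYNE3 34, both above the median of 11 over 35116 RefSeq promoters, while their peaks were at means of 2414 and 285 normalized counts. Of the 10 genes, 9 had a RefSeq promoter in the table used.

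**Figure D4:**
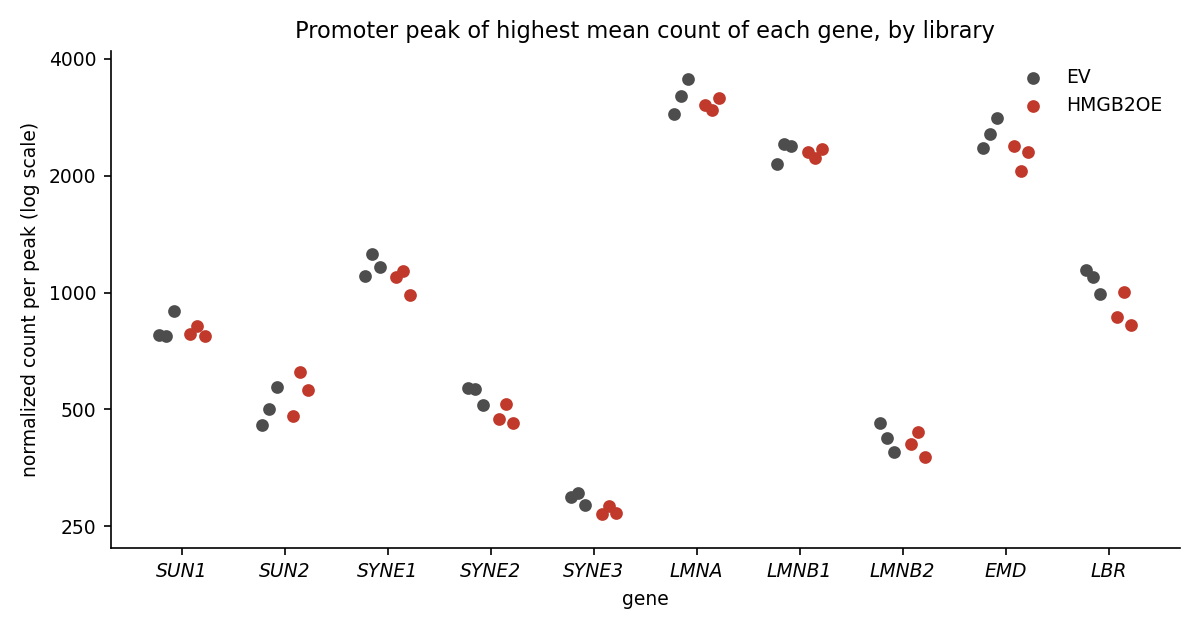
Normalized count (vertical axis, log scale) in each of the 6 libraries of the promoter peak of highest mean count of each gene, EV in grey and HMGB2OE in red. Levels run from 269 in SYNE3 to 3542 in LMNA, and the libraries of the groups overlap in every gene but SYNE3. The peaks of SYNE1, LMNA, SUN2 and SYNE2 lie at internal starts of the gene.

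Counts summed over all peaks of a gene were tested for the 18297 protein-coding genes with enough counts, of which 5.74% were higher and 3.37% lower in HMGB2OE at an adjusted p under 0.05. None of the 10 genes passed, while 2 of them, EMD and LBR, had an unadjusted p under 0.05 (0.0093 and 0.016). DESeq2 also called none. The log2 fold changes lay between -0.17 and 0.10, 4 above 0 and 6 below, with a median of -0.03 beside -0.0026 for all genes.

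**Figure D5:**
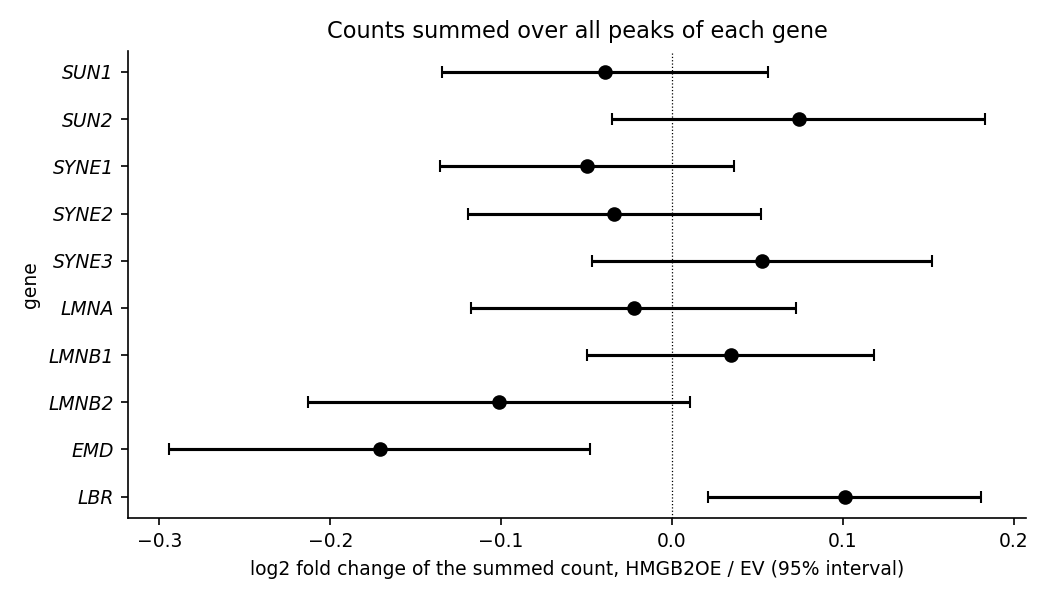
Log2 fold change of the count summed over all peaks of each gene (horizontal axis, HMGB2OE over EV) with its 95% interval from edgeR (n = 3 libraries per group). The intervals of 8 genes include 0, and those of EMD (-0.29 to -0.05) and LBR (0.02 to 0.18) do not before adjustment over all genes.

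A further list of 29 nuclear envelope genes held other LEM-domain proteins, torsin partners, minor SUN and KASH proteins, lamin processing enzymes and lamin or nesprin binding proteins. It had 178 tested peaks, of which 4 were called higher (2.25%, beside 1.87% of all tested peaks) and 2 lower (1.12% beside 1.44%). These shares were near those of all peaks, and the median log2 fold change was 0.02. Of 28 genes with a tested summed count, 1 was higher and none lower, beside 5.74% and 3.37% of all tested genes. That gene was MLIP, a lamin A/C interacting protein of muscle, with a summed count of 1932, 2022 and 1997 in EV and 2500.2, 2445 and 2475 in HMGB2OE (log2 fold change 0.32, adjusted p = 0.00027, edgeR). The 2 called peaks of MLIP, an intronic one (log2 fold change 0.59, adjusted p = 0.0077) and an intergenic one (0.62, adjusted p = 0.026), stood just past 1.5-fold. The intronic one came in under that limit without EV replicate 1, EV replicate 2 or HMGB2OE replicate 3, with the loess trend removed and with GC-content offsets (lowest log2 fold change 0.52, adjusted p up to 0.038). The intergenic one lost the test without EV replicates 2 and 3 and HMGB2OE replicates 1 and 3 (adjusted p up to 0.12) and with DESeq2 (0.057), and it came in under 1.5-fold with the loess trend removed (0.58) and with GC-content offsets (0.57). KASH5, which encodes a meiotic KASH protein, had a higher intronic peak at 74.3 ± 19.4 in EV and 130.5 ± 12.3 in HMGB2OE (SD, n = 3 each). That peak lost its call without EV replicate 2 (adjusted p = 0.054, edgeR). KIF5B, the kinesin heavy chain that binds nesprins, had a higher intergenic peak (log2 fold change 0.69, adjusted p = 0.012), whose adjusted p was 0.071, 0.072 and 0.057 without EV replicate 1, HMGB2OE replicate 1 and HMGB2OE replicate 3. A peak over a coding exon of TOR1AIP1, which encodes the lamina protein LAP1, was lower, at 97.3, 119.6 and 106 in EV and 57.8, 59.2 and 37.2 in HMGB2OE (log2 fold change -1.06, adjusted p = 0.0015). So was an intergenic peak nearest to TMPO, which encodes LAP2 (-0.67, adjusted p = 0.014), with adjusted p-values of 0.061, 0.094 and 0.051 without EV replicate 1, HMGB2OE replicate 1 and HMGB2OE replicate 2.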

How the data were processed

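ATAC-seq was done on 3 EV and 3 HMGB2OE libraries of A375 cells. The authors trimmed reads with Trim Galore 0.6.7 (with cutadapt 4.0), mapped them with Bowtie 2 to hg38, marked duplicates with Picard, called peaks with MACS2 using a public melanocyte dataset as control, removed blacklisted regions and merged near peaks. The deposited values are raw counts per peak and library from featureCounts, without normalization or pooling. Whether positions were shifted for Tn5 insertion, and how reads with several alignments were counted, is not given in the sources used here.

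Counts were fitted with edgeR 4.0.16 in R 4.3.3 (TMM, filterByExpr, quasi-likelihood F test without covariates) over all peaks, and over counts summed per protein-coding gene. The Benjamini–Hochberg adjustment ran over all features tested. Standard errors were taken as the absolute log2 fold change over the root of the F statistic. DESeq2 1.42.0 was an alternative, as were other scalings, filters, GC-content offsets, a replicate block, other assignments and leaving out each library. Calls needed an adjusted p-value under 0.05 and, for peaks, a 1.5-fold difference. TMM factors lay between 0.975 and 1.02, and a shift shared by most peaks would not be seen.

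GENCODE 44 gave genes and exons. A promoter peak has its centre within 1 kb of a start of any transcript of the gene. Members, lists and words were chosen with earlier results of these data known. Named peaks were, for each gene, the most accessible promoter and non-promoter peak, called peaks, and the largest and smallest log2 fold change at a mean of at least 30 normalized counts, and others were named after their values were seen. The sequence of 1 called peak is not reported here. Both fits were tested on simulated data with known changes.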

Additional observations from a re-analysis of the deposited data

How the results depend on the processing

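The 4 calls in SYNE1 and SYNE2 stood under every scaling, filter, GC correction and test tried. The count of peaks called higher was 3, or 2 to 3 with a library left out (2 without EV replicate 3, HMGB2OE replicate 1 or HMGB2OE replicate 3), 4 without a fold limit, 4 with a smaller fold limit and 2 with only peaks inside the genes, and that of peaks called lower was 1, or 1 to 2 with a library left out (2 without EV replicate 3), 2 without a fold limit and 2 with a smaller fold limit. The number of genes with a changed summed count was 0, and 1 with library size only (EMD, adjusted p = 0.048, edgeR), 1 with the replicate block (EMD, 0.019), 1 with the replicate block and GC-content offsets (EMD, 0.041) and 1 with only peaks inside the genes (LBR, 0.048). Deviations of same-numbered libraries from their group means had correlations of -0.088, 0.19 and 0.13, beside -0.27 to 0.16 for libraries of unlike number. Over all genes, the replicate block raised the number of changed summed counts from 1668 to 2428. Whether the numbers pair the samples cannot be told from these values. With the replicate block the coding exon peak of SYNE1 had a log2 fold change of 0.84, and the block moved no call of a peak of these genes.

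Small log2 fold changes changed sign. With library size only they were 0.010 at the SUN1 peak 813113, 0.013 at the SUN2 peak 38766038, 0.0044 at the LMNB1 promoter and 0.011 at the HMGB2 start peak. With the loess trend removed they were 0.040 at the SUN1 peak 813113, 0.011 at the SUN1 promoter, 0.0056 at the LMNA peak 156130033, 0.048 at the LMNB1 promoter and 0.054 at the HMGB2 start peak. With GC-content offsets, without and with the replicate block, they were -0.0093 and -0.0072 at the SYNE1 peak 152401921, -0.017 and -0.0082 at the SYNE2 peak 63987076, 0.030 and 0.032 at the LMNB1 promoter and 0.12 and 0.12 at the LMNB1 peak 126801805. The replicate block gave -0.0035 at the SUN1 peak 876165. With a library left out, values ran from -0.081 to 0.097 (SUN1 peak 813113), -0.078 to 0.032 (SUN1 promoter), -0.077 to 0.084 (SUN1 peak 876165), -0.033 to 0.027 (SUN2 peak 38766038), -0.059 to 0.13 (SYNE1 peak 152401921), -0.059 to 0.092 (SYNE2 peak 63987076), -0.14 to 0.012 (LMNA peak 156130033), -0.066 to 0.016 (LMNB1 promoter), -0.17 to 0.085 (LMNB1 peak 126801805), -0.11 to 0.0074 (LMNB2 promoter), -0.32 to 0.13 (EMD peak 154384091), -0.0013 to 0.084 (SYNE3 summed count), -0.057 to 0.022 (LMNA summed count) and -0.085 to 0.071 (HMGB2 start peak). None of these was called, and the cause was not tested. Depth limited the weak peaks: the standard error was 0.289 at the SYNE2 coding exon peak, with a mean of 38.2 normalized counts, and 0.069 at the LMNA peak 156114106.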

Other observations

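Some peaks counted here also lie in another protein-coding gene, 8 in all. The 3 peaks at the 3′ end of SYNE2 lie in ESR2 as well, the last intronic peak of SYNE1 lies in ESR1, and 4 peaks of SUN2 lie in GTPBP1 or DNAL4, so that their counts belong to a pair of genes. None of them was called.

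Around the 10 genes, tested peaks within 500 kb that were not counted with the gene had median log2 fold changes between -0.05 (around LMNA, 193 peaks) and 0.09 (around LMNB1, 50 peaks). Around SYNE1, with 3 called peaks of its own, none of 51 such peaks was called, and around SYNE2 2 of 55 were called higher and none lower.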
